A study of Mus musculus with 2 samples.

Results

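The keratin part of an ATAC-seq comparison of stretched and untreated mouse epidermis was examined, as 177 open regions next to type I and type II keratin genes out of 109257 regions in all. A region belonged to a keratin gene when that gene's RefSeq span (GRCm38) was the nearest protein-coding span, at no more than 20 kb, with the shortest span taken on ties. The keratin genes were those with a symbol of Krt followed by digits and at most 1 letter on chromosomes 11 and 15. There were 53 of them, 28 of type I (Krt18, on chromosome 15, included) and 25 of type II. Of these, 47 had at least 1 region, and Krt20, Krt26, Krt34, Krt40, Krt81 and Krt87 had none.

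ATAC-seq measures open chromatin by the insertion of adapters into accessible DNA by the transposase Tn5. The cells were basal cells of the interfollicular epidermis of back skin, sorted as positive for ITGA6, an integrin subunit of cells on the basement membrane, and negative for CD34, a surface marker of hair follicle stem cells. The control library came from 1 untreated CD1 mouse and the stretched library from 1 CD1 mouse whose back skin had been expanded by force, with 10000 cells each. CD1 is an outbred stock, the labels used here give no age, sex or duration, and the D2 in the title of the stretched library is not explained. Each group is 1 library, so differences carry neither replicate error nor p-values, and treatment, animal and library cannot be told apart.

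Keratins are the intermediate filament proteins of epithelia, and a filament is built from pairs of a type I and a type II chain. Basal keratinocytes carry KRT5 with KRT14, differentiating cells above them switch to KRT1 with KRT10, and wounded or hyperproliferative epidermis adds KRT6, KRT16 and KRT17. Further members belong to simple epithelia, to the root sheaths of the follicle and to the hair shaft, and nearly all lie in a type I cluster on chromosome 11 and a type II cluster on chromosome 15.

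Keratin regions held 13115 control and 9478 stretched counts in total, out of 8820178 and 11803785 over all regions. A keratin region had a median of 50 and 29 counts. The highest count of a keratin region was 374 (control) and 358 (stretched). Folds are stretched over control after scaling of the libraries, so that 1 is near the median of all regions, and each is followed by an exact 95% interval for counting error. A region was called higher or lower when it had at least 20 counts summed, a fold of at least 2 and an interval without 1. In bulk chromatin a smaller share of cells with an open site and less opening per cell cannot be told apart.

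Start sites with a RefSeq promoter sequence (GRCm38.p6) were available for 36 keratin genes and 37 starts. Of the 37, 7 (18.9%) lay inside an open region, against 46.7% of 32851 starts of all genes. The 37 leave out genes without such a sequence. Among these, Krt1, Krt6a, Krt6b, Krt15, Krt16 and Krt17 each had an open region over a gene end. Others left out, such as Krt33a, Krt35 and Krt83, had none over either end. The listed Krt14 start, counted as outside, lies 1480 bp inside the gene span, and a region covers the outer 5′ end. The 5 sequences below are starts inside a region that was about level between the libraries (Krt5 and Krt25) or lower in the stretched one (Krt10, Krt77 and Krt18). Krt25 and Krt77 were added after their values were seen. Each is the 250 bases before the start, 5′ to 3′ on the gene's strand, from the reference strain and not from the CD1 mice. Capitals mark the letters searched, TATAAA on the gene strand beginning 40 to 20 bases before the start, TGANTCA for AP-1, GCCNNNGGC for AP-2 and CCNCNCCC for KLF factors on both strands, and a p63 half-site pair. Matches may overlap.
Krt5, chr15:101712906-101713155, minus strand: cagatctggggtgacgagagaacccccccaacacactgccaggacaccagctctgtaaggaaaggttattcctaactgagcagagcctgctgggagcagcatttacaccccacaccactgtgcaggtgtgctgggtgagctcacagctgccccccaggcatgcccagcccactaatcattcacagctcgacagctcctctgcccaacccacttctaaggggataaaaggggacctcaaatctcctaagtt
Krt25, chr11:99322952-99323201, minus strand: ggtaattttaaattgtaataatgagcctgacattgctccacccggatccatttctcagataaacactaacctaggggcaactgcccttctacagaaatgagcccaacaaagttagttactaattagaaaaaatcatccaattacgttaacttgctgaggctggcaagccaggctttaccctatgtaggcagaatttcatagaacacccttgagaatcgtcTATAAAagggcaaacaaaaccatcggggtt
Krt10, chr11:99389365-99389614, minus strand: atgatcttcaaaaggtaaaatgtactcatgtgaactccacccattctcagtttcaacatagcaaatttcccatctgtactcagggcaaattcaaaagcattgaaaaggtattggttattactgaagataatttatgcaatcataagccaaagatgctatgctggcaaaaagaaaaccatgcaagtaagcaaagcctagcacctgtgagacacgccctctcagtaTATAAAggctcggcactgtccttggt
Krt77, chr15:101869706-101869955, minus strand: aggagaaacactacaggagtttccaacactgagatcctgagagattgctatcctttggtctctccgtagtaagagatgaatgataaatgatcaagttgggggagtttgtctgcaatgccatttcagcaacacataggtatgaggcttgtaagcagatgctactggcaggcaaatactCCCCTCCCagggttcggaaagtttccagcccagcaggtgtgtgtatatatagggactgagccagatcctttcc
Krt18, chr15:102027966-102028215, plus strand: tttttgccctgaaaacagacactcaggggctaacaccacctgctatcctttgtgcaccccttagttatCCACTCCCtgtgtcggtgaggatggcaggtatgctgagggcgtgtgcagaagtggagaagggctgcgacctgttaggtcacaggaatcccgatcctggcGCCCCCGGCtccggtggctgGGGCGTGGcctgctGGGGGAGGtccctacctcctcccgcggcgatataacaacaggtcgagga

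The TATA letters stood in the window in 13 of 37 keratin starts (35.1%), against 1.99% of all 32851. They included Krt10, Krt25, Krt12, Krt20, Krt71, Krt73 and the hair keratins Krt31, Krt32, Krt34 and Krt40. The AP-2 letters were in 13.5% of keratin starts and 13.7% of all, the KLF letters in 37.8% and 45.9%, and the AP-1 letters in 5.41% and 6.75%, the latter at both starts of Krt13. The p63 pair was in 0 of 37 and in 0.490% of all. The Krt5 stretch held none of these letters, and those of Krt10 and Krt25 both held the TATA letters.

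The main pattern was that keratin chromatin was more often lower than higher in the stretched library. Of the 159 keratin regions with at least 20 counts, 43 (27.0%, 20.3 to 34.7) were at least 2-fold lower and 2 (1.26%) at least 2-fold higher. Over the 73058 regions of that depth within 20 kb of any protein-coding gene, the shares were 8.66% lower and 6.81% higher, and over all 94857 regions of that depth 8.71% and 7.22%. The median log2 fold was -0.57 for the keratin regions and -0.01 for all of these. The fold was below 1 in 131 of 159 keratin regions (82.4%), against 50.4%. The lower share was also above the background with scaling by total counts (54.1% against 23.4%). It also did so after subtraction of the median log2 fold of regions alike in count and gene density (14.5% against 6.64%), although the number called was then 23.

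The surroundings of the clusters were lower too. Regions of other genes or of none, in and within 500 kb of the clusters, numbered 257 at that depth. Of these, 41 (16.0%) were lower, 0 were higher and 79.4% had a fold below 1, with a median log2 fold of -0.38. Regions of the keratin-associated protein genes, Krtap, whose products bind hair keratins, had 4 of 18 lower and 0 higher. These were taken from any chromosome, and those in or within 500 kb of the clusters are also among the 257. The clusters are gene-dense, with 28 to 65 protein-coding genes centred within 500 kb of a keratin region. Over all regions near genes with 20 or more but under 40 such genes, 11.3% were lower and 3.86% higher. With at least 40 the shares were 9.86% and 3.31%. Keratin regions had 27.4% lower and 3.23% higher in the first of these classes and 26.8% and 0 in the second. Copy number was not measured in either animal, and its part in these differences was not tested.

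**Figure D1:**
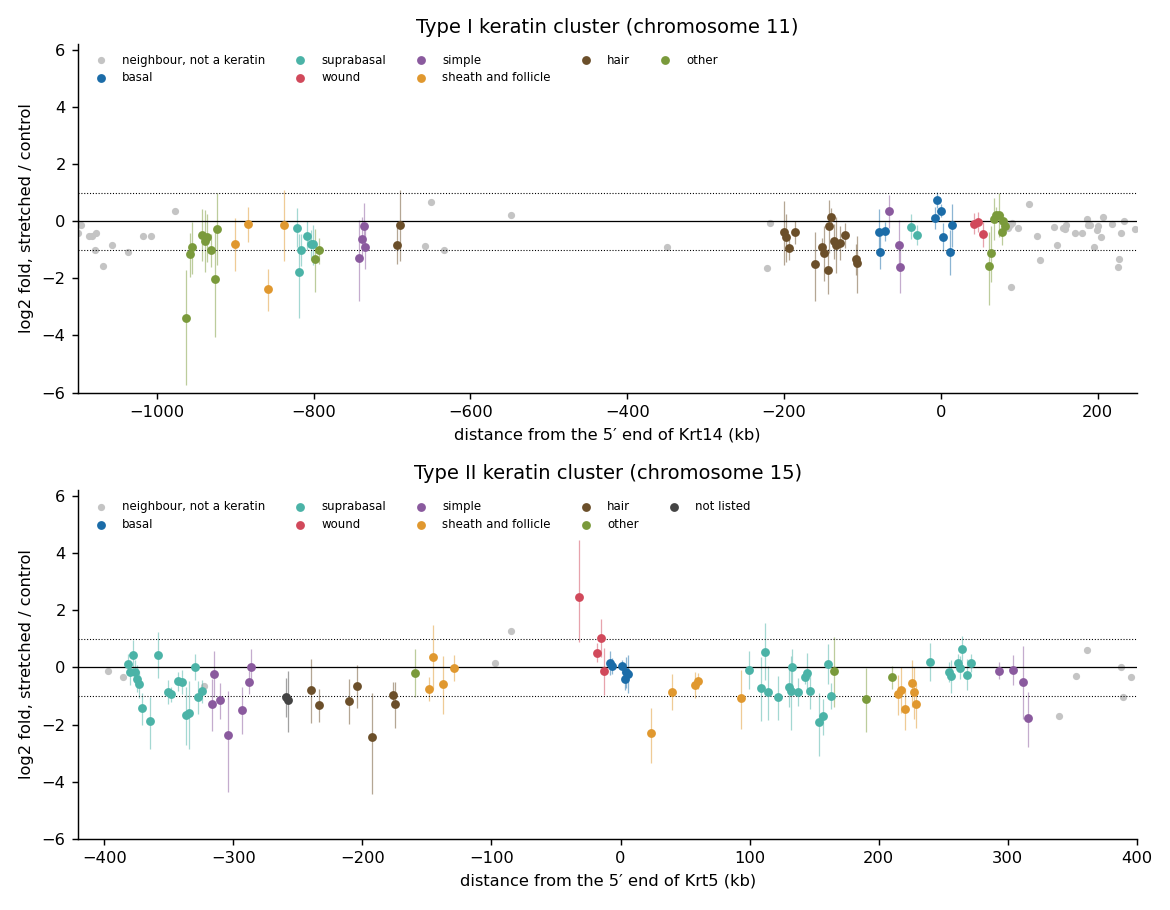
Log2 fold (stretched over control) of each region with at least 20 counts against its distance in kb from the 5′ end of Krt14 (top) or Krt5 (bottom). Coloured points are keratin regions by class with exact 95% intervals, grey points are neighbouring regions of other genes, and dotted lines mark 2-fold. Most coloured points lie below 0, and the 2 called higher are at Krt6b and Krt6a beside Krt5.

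Depth and call went together. Among keratin regions with 20 to 49 counts 14 of 34 were lower (41.2%), with 50 to 99 counts 18 of 52 (34.6%), and with 100 or more but under 200 counts 11 of 40 (27.5%). None of the 33 regions with 200 or more counts was lower. The same shares of all regions near genes were 13.7%, 10.8%, 4.77% and 0.994%, so the keratin share was the larger in each of the first 3 classes. The 33 deepest keratin regions had a median log2 fold of -0.16, where all regions of that depth had 0.28.

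**Figure D2:**
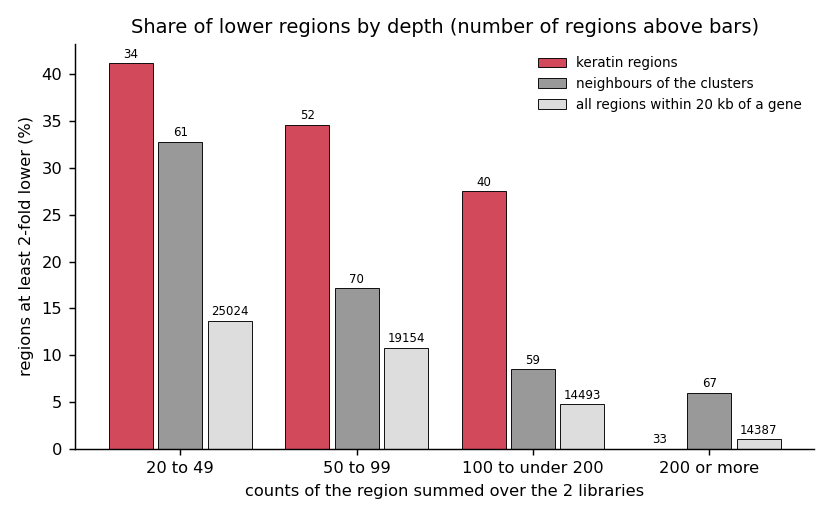
Percent of regions at least 2-fold lower in the stretched library, by the counts summed over the 2 libraries, for keratin regions, for neighbours of the clusters and for all regions within 20 kb of a gene. The number of regions stands above each bar. The keratin bars go from 41.2% to 0 from the thinnest to the deepest class and exceed the other bars in all but the last.

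The keratins of each type gave nearly the same values. Type I had 20 of 71 regions lower (28.2%) and 0 higher, with a median log2 fold of -0.57, and type II had 23 of 88 lower (26.1%) and 2 higher, also with -0.57. Regions inside a keratin gene had 16 of 60 lower and regions outside had 27 of 99. Regions over a listed start or the outer 5′ end of a gene, or over either end of a gene without a listed start, had 5 of 17 lower and 1 higher.

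By class the order of medians ran from the wound and basal keratins near 0 to the hair keratins lowest. The median log2 fold was -0.03 for the wound class, -0.18 for basal, -0.50 for suprabasal, -0.73 for simple epithelial, -0.78 for root sheath and follicle epithelium and -0.85 for hair. The remaining keratins had -0.57. No difference between classes was tested. The classes also differed in depth, and depth and fold went together. The median summed count of a region was 191 for basal, 189 for wound and 130 for suprabasal. It was 75 for sheath and follicle, 71 for hair, 67.5 for simple and 53 for the remaining keratins. The part of depth in the order of classes was not tested. The lower share was 2 of 15 regions for basal, 10 of 50 for suprabasal, 0 of 7 for wound, 6 of 18 for simple, 5 of 19 for sheath and follicle, 9 of 25 for hair and 9 of 23 for the others. Krt88, which was in no class, had 2 of 2 lower.

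**Figure D3:**
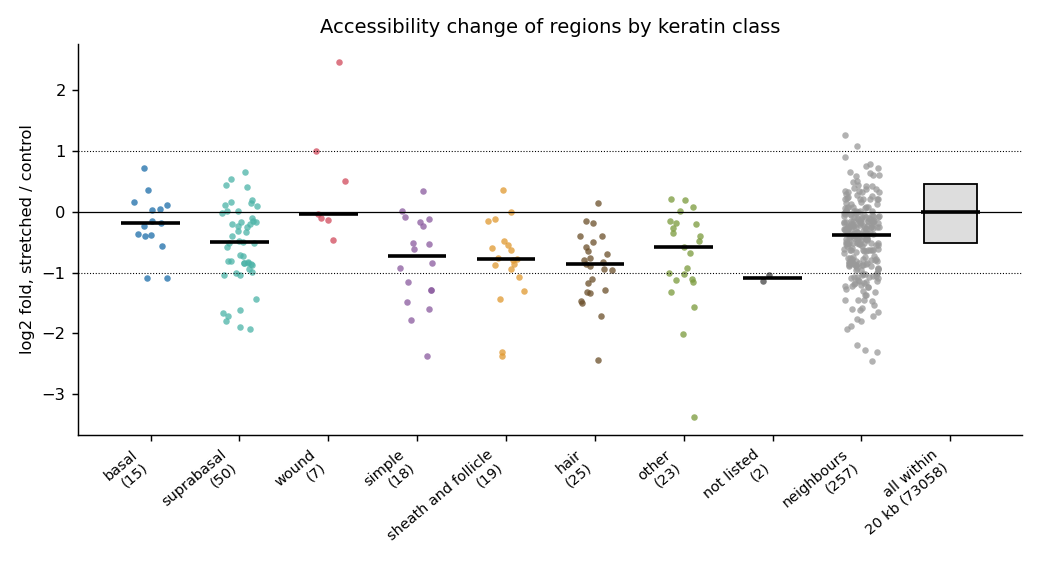
Log2 fold (stretched over control) of each keratin region with at least 20 counts by class, with neighbours of the clusters and, as a box of the quartiles, all regions within 20 kb of a gene. Black bars are medians and the number of regions is in brackets. The medians run from -0.03 in the wound class to -0.85 in the hair class, and all regions have -0.01.

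Summed over its regions, a keratin gene was more often lower than a gene at large. Of the 47 keratin genes, 30 (63.8%) had an interval below 1 and 3 had one above 1, against 18.5% and 35.8% of 16802 genes. At least 2-fold lower were 12 (25.5%), against 2.56%, and 1 was at least 2-fold higher, against 4.71%. The 12 were Krt27, Krt71, Krt73 and Krt79 of the sheath and follicle class, Krt35, Krt36, Krt82, Krt83 and Krt86 of the hair class, Krt12 and Krt222 of the others, and Krt88. The 3 above 1 were Krt6b, Krt6a and Krt14.

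**Figure D4:**
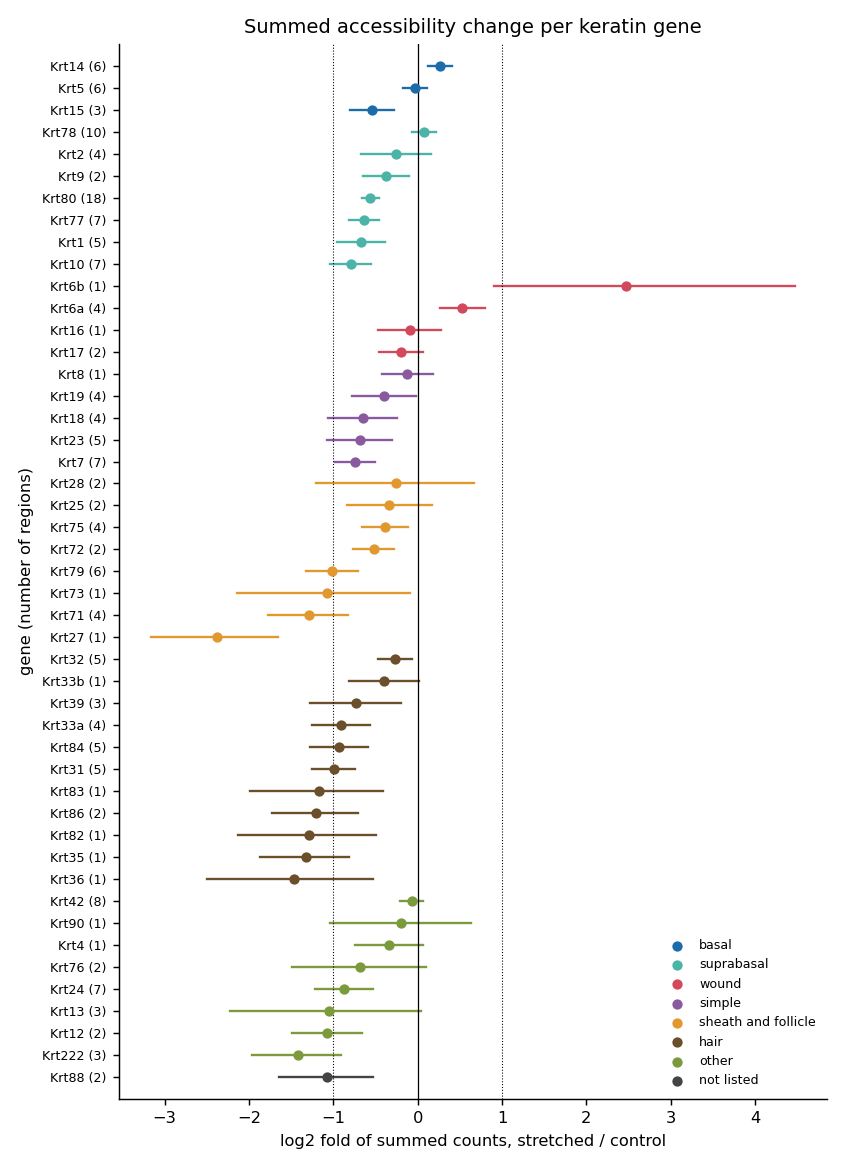
Log2 fold of the summed counts (stretched over control) of each keratin gene with its exact 95% interval, grouped and coloured by class, with the number of regions in brackets. Dotted lines mark 2-fold. Krt14, Krt6a and Krt6b have intervals above 0, and the sheath, follicle and hair genes all lie below 0, with intervals that reach above it for Krt25, Krt28 and Krt33b.

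Of the basal keratins, Krt5 and Krt14 were near or above 1 with the main scaling and Krt15 was below it. All regions near genes had a summed fold of 1.24 with that scaling, a sum weighted toward the deepest regions. Their median log2 fold was -0.01. Over its 6 regions Krt5, the type II chain of basal cells, had 875 and 811 counts (0.979, 0.889 to 1.08), and none of its regions was called. The summed fold of Krt5 was 0.693 with scaling by total counts and 0.796 with the count trend removed. The region over its start, on chromosome 15 from 101712478 to 101715016, had 306 and 297 counts (1.03, 0.871 to 1.21). Its upstream regions, 2873, 4428 and 5789 bp from the gene, had folds of 0.761, 0.883 and 0.854 with intervals that held 1.

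Krt14, the type I partner, had 763 and 865 counts over 6 regions. Its fold was 1.20 (1.09 to 1.32), but 0.847 with scaling by total counts and 0.959 with the count trend removed. The region over its outer 5′ end, on chromosome 11 from 100207276 to 100209286, had 293 and 358 counts (1.29, 1.10 to 1.51), and a region at its other end, 100201176 to 100203282, had 175 and 274 (1.65, 1.36 to 2.01). A region 11363 bp away was lower, with 47 and 21 counts (0.472, 0.268 to 0.806). Both end regions had intervals above 1 with this scaling but were under 2-fold, and the 4 regions outside the gene had folds from 0.472 to 1.08.

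Krt15, a keratin of basal cells and of follicle stem cells, had 311 and 203 counts over 3 regions (0.690, 0.575 to 0.826). The region reaching over 1 of its ends had 188 and 139 counts (0.781, 0.623 to 0.978). A region 1290 bp from the gene, on chromosome 11 from 100128901 to 100130469, had 90 and 40 (0.470, 0.315 to 0.689). All 3 of its regions had folds below 1, unlike those of Krt5 and Krt14.

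The wound keratins held the only 2 higher calls. At Krt6b, a region over 1 gene end (chromosome 15, 101680074 to 101680762) had 4 and 21 counts (5.55, 1.87 to 22.2), with a listed peak in the stretched library alone. Krt6a had 199 and 272 counts over 4 regions (1.44, 1.20 to 1.74). A region 2964 bp from Krt6a (101697269 to 101697914) had 32 and 61 (2.01, 1.29 to 3.19). The region over 1 end of Krt6a had 136 and 183 (1.42, 1.13 to 1.79). Scaling by total counts left the summed fold of Krt6a at 1.02 and that of Krt6b at 3.92.

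Krt6a and Krt6b are close copies, and reads that fit both may be lost or placed in either, so their values are uncertain. The type I partners of the wound class were not higher. Krt16, with 1 region, had 132 and 117 counts (0.937, 0.724 to 1.21), and Krt17 had 264 and 218 over 2 regions (0.873, 0.726 to 1.05). Thus the type II wound keratins had intervals above 1 and the type I ones had intervals that held it. This difference was not tested.

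Krt6b, Krt6a and Krt5 are neighbours, and their 10 regions with at least 20 counts had 0 lower and 2 higher calls, with a median log2 fold of 0.04. The other 81 keratin regions of chromosome 15 had 24 lower (29.6%) and 0 higher, with -0.70. This block was picked after its values were seen.

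The suprabasal keratins were lower for the early differentiation pair. Krt10, the type I chain of spinous cells, had 399 and 218 counts over 7 regions (0.577, 0.487 to 0.683). Its listed start lies in a region (chromosome 11, 99389026 to 99389497) with 22 and 6 counts (0.288, 0.0956 to 0.733). A further region inside the annotated span, 99390941 to 99392540, had 89 and 42 counts (0.499, 0.337 to 0.728). Krt10 had a fold below 1 with every scaling used.

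Krt1, the type II partner, had 277 and 165 counts over 5 regions (0.629, 0.516 to 0.766). The region over 1 of its ends had 111 and 58 (0.552, 0.395 to 0.765), and a region 9804 bp away had 48 and 22 (0.484, 0.278 to 0.818). A region inside Krt1 toward its other end had 46 and 44 (1.01, 0.653 to 1.56). Krt77, a suprabasal keratin, had 702 and 428 over 7 regions (0.644, 0.570 to 0.728). The region over its start (chromosome 15, 101869427 to 101870075) had 97 and 28 (0.305, 0.193 to 0.469). A second region inside Krt77, 101866685 to 101867028, had 40 and 10 (0.264, 0.118 to 0.538). Not all regions of Krt77 were low, since 1 of them, 3405 bp from the gene, had 35 and 36 counts.

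Krt80, a broadly expressed keratin, had the most regions of any keratin, 18, with 2001 and 1282 counts (0.677, 0.631 to 0.727) and 5 lower. The region over 1 of its ends, chromosome 15 from 101347708 to 101348651, had 55 and 14 counts (0.269, 0.138 to 0.490), while that over the other end had 203 and 137 (0.713, 0.570 to 0.890). Krt9, of palms and soles, had 275 and 201 over 2 regions (0.772, 0.641 to 0.930).

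Not every suprabasal keratin was lower. Krt78 had 859 and 856 counts over 10 regions (1.05, 0.957 to 1.16), none called, but 0.745 with total counts. Krt2, a keratin of the upper layers, had 111 and 88 over 4 regions (0.838, 0.626 to 1.12). The RefSeq span of Krt78 reaches 42337 bp beyond its listed start, so many of its regions lie far upstream of that start.

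The simple epithelial keratins were lower in 4 of 5 genes by their interval. Krt7 had 407 and 231 counts over 7 regions (0.600, 0.508 to 0.707), 4 of them lower. The lowest lies 3289 bp before its start (chromosome 15, 101408587 to 101409114) and had 22 and 4 counts (0.192, 0.0481 to 0.566). Krt18 had 136 and 82 over 4 regions (0.637, 0.478 to 0.844), and the region over its start (102028087 to 102029011) had 47 and 13 (0.292, 0.145 to 0.549). Its filament partner Krt8 had 1 region, 861 bp from the gene, with 200 and 174 counts (0.919, 0.746 to 1.13).

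KRT8 and KRT18 mark Merkel cells within the epidermis. The fixed list of other Merkel cell genes (Atoh1, Sox2, Isl1, Pou4f3 and Insm1) had 15 regions, 0 of 13 lower and 1 higher. Their summed fold was 1.15 (1.03 to 1.29) and their median log2 fold 0.01. All regions near genes had 1.24, a sum weighted toward the deepest regions, and a median of -0.01. Among the listed genes only Isl1 had an interval above 1 (1.45, 1.14 to 1.84), and the others had intervals that held 1. The part of Merkel cells in the Krt8 and Krt18 values was not tested. Krt23 had 153 and 90 counts (0.622, 0.474 to 0.812). Krt19, of the upper follicle and simple epithelia, had 142 and 102 counts (0.759, 0.583 to 0.986). Its value depended on the distance limit: a region 9275 bp away had 51 and 16 counts (0.332, 0.176 to 0.591) and the region inside the gene had 50 and 60 (1.27, 0.857 to 1.88).

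Keratins of the root sheaths and follicle epithelium included the keratin gene with the lowest fold. Krt27, of the inner root sheath, had 1 region, inside the gene and 1897 bp from its start, with 104 and 19 counts (0.193, 0.112 to 0.317). Both libraries had a listed peak there, with an authors' fold enrichment of 10.1 (control) and 6.60 (stretched). Krt71, another inner root sheath keratin, had 137 and 53 counts over 4 regions (0.409, 0.292 to 0.565). Its lowest region lies inside the gene (chromosome 15, 101736314 to 101737096), with 63 and 12 (0.201, 0.0988 to 0.377).

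Krt79, of the follicle opening, had 282 and 132 counts over 6 regions (0.495, 0.399 to 0.610). All of its regions had folds below 1, and those called had 66 and 23 (0.368, 0.219 to 0.600) and 52 and 20 counts (0.406, 0.230 to 0.693). The region over its start had 33 and 17 (0.544, 0.284 to 1.01). Krt73 had 1 region with 29 and 13 (0.474, 0.226 to 0.940), although its only listed peak there was in the stretched library.

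The other members of the class were closer to 1. Krt72 had 363 and 239 counts (0.696, 0.588 to 0.821). Krt75, of the companion layer, had 270 and 195 (0.763, 0.632 to 0.921). Krt25 had 80 and 60 (0.793, 0.557 to 1.12), and its start region, shown above, had 49 and 43 (0.927, 0.601 to 1.43). Krt28 had only 24 and 19 counts.

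The hair keratins were lower in 10 of 11 genes by their interval, with folds from 0.362 to 0.832. Krt31, a type I chain of the hair cortex, had 408 and 194 counts over 5 regions (0.502, 0.421 to 0.598), 3 of them lower. The lowest of these, 12714 bp from the gene, had 66 and 19 (0.304, 0.172 to 0.513). Krt35 had 1 region with 114 and 43 (0.399, 0.274 to 0.571), Krt36 1 with 38 and 13 (0.362, 0.177 to 0.694), and Krt82, of the hair cuticle, 1 with 49 and 19 (0.410, 0.228 to 0.709). These 3 single-region genes all had folds below 0.5.

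Krt86 had 117 and 48 counts (0.434, 0.303 to 0.612) and Krt83 had 50 and 21 (0.444, 0.253 to 0.753). A region 4810 bp from Krt84 had 23 and 4 (0.184, 0.0462 to 0.538), while Krt84 as a whole had 211 and 105 (0.526, 0.412 to 0.668). Krt33a had 210 and 106 (0.533, 0.418 to 0.677) and Krt39 84 and 48 (0.604, 0.414 to 0.871). Nearest to 1 was Krt32, with 460 and 362 (0.832, 0.723 to 0.956), of which 187 and 196 came from 1 region (1.11, 0.902 to 1.36). Krt33b, with 121 and 87 in 1 region, had an interval that held 1. Several of these genes are near-copies of each other, so reads shared between them are uncertain.

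Markers of the follicle were set beside these classes. Genes of the hair shaft and sheath lineages (Msx2, Hoxc13, Dlx3, Foxn1, Gata3, Lef1, Foxq1 and Vdr) had 7 of 65 regions lower (10.8%) and 3 higher. Their median log2 fold was -0.28, and their summed level 77.0 (control) and 71.4 (stretched) scaled counts per kb. Foxn1, a factor of keratinocyte and hair differentiation, had 545 and 306 counts (0.593, 0.514 to 0.684). Msx2 (0.765), Hoxc13 (0.682) and Dlx3 (0.834) also had intervals below 1. Only Gata3, with 774 and 882 (1.20, 1.09 to 1.33), had an interval above 1, and those of the other genes held it. Follicle markers (Lhx2, Sox9, Lgr5, Nfatc1, Tbx1, Cd34, Foxc1 and Lrig1) had 6 of 69 lower (8.70%), 2 higher and a median of -0.24. Of these, Tbx1 (0.593), Lhx2 (0.715) and Lrig1 (0.925) had intervals below 1, and Lgr5 (1.31) and Cd34 (1.36) above it. The part of follicle cells in the keratin values was not tested.

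Among the remaining keratins the region with the lowest fold of the family lay over 1 end of Krt222, an atypical keratin gene at the edge of the type I cluster. It had 33 and 3 counts (0.0961, 0.0189 to 0.306), on chromosome 11 from 99243802 to 99244673, with a peak in the control library only. Over 3 regions Krt222 had 119 and 42 counts (0.373, 0.256 to 0.534). Krt12, a corneal keratin, had 160 and 72 (0.476, 0.355 to 0.632), both of its regions lying between it and Krt10. Krt24 had 211 and 109 (0.546, 0.429 to 0.691), with 2 of the 6 regions of at least 20 counts lower.

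Krt42, a keratin of the nail in mice, had 958 and 864 counts over 8 regions (0.953, 0.868 to 1.05). The 2 in or nearest the gene were lower, with 25 and 8 (0.338, 0.132 to 0.773) and 32 and 14 counts (0.462, 0.228 to 0.891). The 6 farther out, from 4704 to 18754 bp, were not called. Krt4 and Krt76, of the oral mucosa, had 123 and 92 (0.790, 0.597 to 1.04) and 39 and 23 (0.623, 0.355 to 1.07). Krt90 had 29 and 24, and Krt13, of mucosa, 24 and 11 in 3 regions of under 20 counts each. The 20 kb limit left Krt42 at 18754 bp (222 and 186 counts) as the farthest member, and the nearest region outside was 20002 bp from Krt18, with 52 and 15.

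As levels, scaled counts per kb of open region were highest at Krt16, with 169.7 (control) and 159 (stretched), followed in the control by Krt8 (163), Krt4 (161) and Krt77 (159). Krt5 stood at place 9 of 47 in the control and at place 4 in the stretched library (133 and 131), and Krt14 moved from place 13 (105) to place 7 (125). Krt27 went from place 6 (148) to place 37 (28.6). Krt6b was last in the control (5.65) and at place 33 in the stretched library (31.3). Neighbouring places often lie within each other's counting intervals, and a level of 1 region, as at Krt16, Krt8, Krt4 and Krt27, rests on that site alone.

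**Figure D5:**
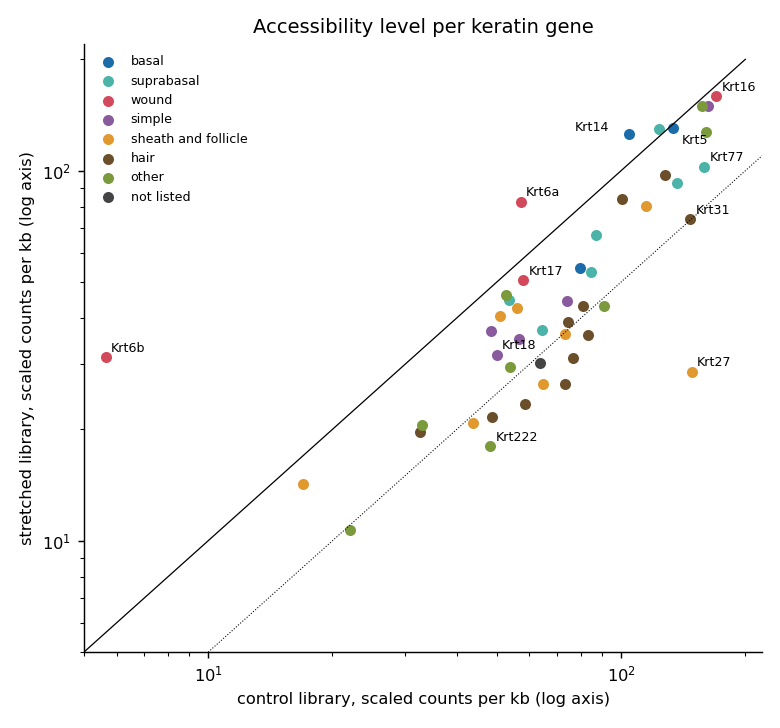
TMM-scaled counts per kb of open region of each keratin gene with at least 20 counts, control (x) against stretched (y), both on log axes, coloured by class. The solid line marks equal levels and the dotted line a fold of 0.5. Krt16 is highest in both libraries, Krt6a and Krt6b lie above the solid line, and Krt27 lies far below the dotted one.

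The authors' peak lists, called on each library alone, were set beside the counts. A listed peak was present in both libraries at 111 keratin regions, in the control only at 24 (13.6%), in the stretched library only at 6 (3.39%), and in neither at 36. Over all regions near genes, 8.79% had a control peak only and 12.9% a stretched peak only. The 15 basal regions had a peak in both. Hair keratins had 7 of 29 with a control peak only and 1 with a stretched peak only. Of the 43 lower regions, 24 had a peak in both, 15 in the control only and 1 in the stretched library only.

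The median enrichment over local background of keratin regions was not lower in the stretched library, but it rose less than over all regions near genes. The enrichment covers only regions with a peak in both libraries, which include 24 of the 43 lower regions. Where both libraries had a peak, at 111 keratin regions, the authors' fold enrichment had a median of 4.63 (control) and 4.95 (stretched), and the stretched value was the higher at 76 (68.5%). Over all 44958 such regions near genes the medians were 5.43 and 6.77, with 76.8% higher. This measure is relative to each library's own surroundings and was not scaled between the libraries. It therefore cannot be set directly against the scaled count folds.

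Other genes of the filament system differed among themselves. Genes that anchor or bundle keratin filaments (Dsp, Jup, Pkp1, Pkp3, Plec, Dst, Evpl, Ppl, Eppk1, Flg, Tchh, Tchp and Fam83h) had 7 of 117 regions lower (5.98%) and 8 higher (6.84%), with a median log2 fold of -0.01. Dsp, which links keratins to desmosomes, had 677 and 811 counts (1.27, 1.14 to 1.40), and Tchh (1.25) also had an interval above 1. Evpl, of the cornified envelope, had 720 and 517 (0.759, 0.676 to 0.851), and Jup (0.816) and Plec (0.880) also had intervals below 1. Other intermediate filament genes, among them the lamins and Vim, had 1 of 60 lower and 4 higher, with a median of 0.28. Bfsp1 and Lmna supplied 18 and 13 of those 60 regions. Lmnb1 had 495 and 744 counts (1.59, 1.42 to 1.78). Bfsp1 (1.47), Vim (1.28), Lmna (1.26) and Nefm (2.96, from only 5 and 14 counts) also had intervals above 1. Nes (0.617), Nefh (0.652), Gfap (0.728) and Synm (0.805) had intervals below 1. With total counts the linkers had 21 lower and 3 higher and the other filament genes 10 lower and 0 higher.

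The sort was compared with the chromatin of its markers. Itga6, the sorted marker, had 1040 and 1188 counts over 17 regions (1.21, 1.11 to 1.31), and Cd34, the marker sorted against, had 448 and 578 over 5 regions (1.36, 1.20 to 1.55). The summed fold of all regions near genes was 1.24, weighted toward the deepest regions, and their median log2 fold was -0.01. Other basal keratinocyte genes did not share a direction. Itgb1 (1.45), Trp63 (1.22) and Lamb3 (1.15) had intervals above 1, and the interval of Itgb4 (0.961) held it. Col17a1 had 930 and 790 counts (0.898, 0.815 to 0.988) and Lama3 had 1608 and 1287 (0.846, 0.785 to 0.911). Levels summed over markers of other cells in the skin were, in the control and the stretched library, 68.3 and 65.1 scaled counts per kb for melanocytes, 46.3 and 40.2 for Langerhans and T cells, 64.5 and 47.5 for fibroblasts and 58.0 and 52.2 for endothelial cells. Of these genes only Lum had no region. Open chromatin near a gene is not its expression, so these levels give no share of cells.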

How the data were processed

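Per the labels' protocols, nuclei of 10000 sorted cells per library were cut with Tn5 and the DNA was amplified. Bowtie2 2.2.6, SAMtools, Picard, MACS2 2.1.0.20151222, HTSeq and the build GRCm38 are named in the submitters' processing notes, while the handling of duplicates and the unit counted (reads or fragments) are not stated there. The authors deposited whole-number counts of both libraries over 109257 merged regions. Per the file headers, the peak lists hold for each library the pileup (signal height), the −log10 p and q values and the fold enrichment of each peak, with 31944854 control and 23876613 stretched fragments.

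Libraries were scaled by TMM (edgeR 4.0.16, R 4.3.3), since 10 very large regions took 34.5% of control and 48.9% of stretched counts. Intervals are exact 95% Clopper-Pearson intervals of the stretched share (scipy 1.17.1) and cover counting error only. A count of 0 was set to a floor of 3 counts. Calls were checked on simulated data. Alternatives were total counts, counts outside the large regions, DESeq2 1.42.0 size factors, a count trend removed, other count, fold and distance limits, regions inside genes or with a peak only, and, added after the data were seen, subtraction of the median of regions alike in count and gene density.

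The members, lists and rules were chosen with earlier results of these data known. Named are the 3 deepest genes of each class, every gene with a called region, the 5 largest called folds in each direction and the start-site regions of 13 genes. Other genes and regions named were chosen after their values were seen. Krt74 and Krt85 were listed but not matched. The summed result of the basal keratinocyte list is not reported here.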

Additional observations from a re-analysis of the deposited data

How the results depend on the processing

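Each group is 1 library, so nothing here has a replicate check, and regions of few counts limit what could be called. No paired analysis was possible because each group has 1 library and the replicate numbers only follow accession order. Scaling by total counts, after which all regions had a median log2 fold of -0.50, gave 86 keratin regions lower and 1 higher, and 1 gene with an interval above 1. The median log2 folds were then -1.07 for all keratins, -0.68 basal, -0.997 suprabasal, -0.53 wound, -1.28 sheath and follicle, -1.35 hair, and -1.07 for each of type I and type II. Linker genes then had 21 lower and 3 higher, other intermediate filaments 10 lower and 0 higher, and Krt14 a fold of 0.847. With the count trend removed Krt14 had 0.959 and other filaments 0 lower. Counts outside the large regions gave 1 keratin region higher, 12 linker regions lower, and 2 higher and 3 lower for other filaments. Removing the median of like count and gene density, added after the data were seen, gave 23 keratin and 3 linker regions lower and a hair median of -0.63. The cause of these moves was not tested.

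A fold limit of 1.5 gave 64 keratin regions lower and 4 higher, 14 linkers lower, and 14 higher and 4 lower for other filaments. A limit of 3 gave 15 keratin regions lower and 1 higher, 0 linkers lower and 3 higher, and 0 of either kind for other filaments. A minimum of 100 counts, which tests fewer regions, gave 11 keratin regions lower and 0 higher, 18 genes with an interval below 1, medians of -0.39 for all keratins and -0.12 for simple ones, 2 linkers lower and 1 higher, 2 higher and 0 lower for other filaments, and 1.27 for Krt19. Minimums of 10 counts and of none gave 2 other filament regions lower. Regions inside genes alone gave 16 keratin regions lower and 1 higher, a median of -0.41, 5 linkers higher, 1.27 for Krt19 and 3.17 for Krt84 (2 and 6 counts). Regions with a listed peak gave 5 linkers higher. A limit of 5 kb gave 28 keratin regions lower and 1.26 for Krt19, one of 50 kb gave 7 other filament regions higher, and starts within 1 kb gave 8 start-site regions lower.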
